A study of Mus musculus with 2 samples.

Results

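The genes followed here encode 9 secreted matrix proteins of enamel, dentin and bone: Amtn, Odam, Ambn, Enam, Dspp, Dmp1, Ibsp, Mepe and Spp1. They were chosen by name, as members of the secretory calcium-binding phosphoprotein family, and each was represented by its RefSeq transcript with the most reads. All 9 were among the 23411 genes with values in both deposited tables. The tables describe epithelial cells of the thymic medulla (mTEC), sorted from B6 mice into cells with high and cells with low surface MHC class II. Material of 3 mice was pooled for the sort, and 1 library was made per fraction. The labels name no treatment, no altered gene and no age for either fraction, and the series title concerns Sirt1 in tolerance that depends on the transcription regulator Aire.

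Secretory calcium-binding phosphoproteins are secreted into mineralizing tissue, where their phosphorylated, acidic or proline-rich stretches bind calcium and guide crystal growth. One branch of the family forms enamel and the attachment of gum to tooth, and has relatives in milk and saliva. The other, the SIBLING proteins, belongs to dentin and bone. In the thymus, mTEC transcribe many genes that are otherwise restricted to single tissues, partly under Aire, and so display their products to developing T cells. High surface MHC class II marks the more mature, Aire-rich mTEC.

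Reads on genes numbered 138368543 for MHC-II high cells and 56077471 for MHC-II low cells, and these samples are called the high and the low library. Levels are given as CPM (reads per 1000000 of the TMM-scaled library total), and genes are compared with each other only as CPM per kb of transcript. Ratios are high over low and carry 95% limits from the exact Clopper-Pearson method, which cover counting error only. Genes were called where both limits lay on the same side of a 2-fold difference. No group had a second library, so differences are between these 2 libraries and have no replicate check. Aire was at 571 CPM in MHC-II high cells against 21.0 CPM. The epithelial keratin gene Krt8 was at 1569 and 1955 CPM. Listed markers of mature mTEC were called higher in the high library in 8 of 8 cases, against 14.5% of all genes with a mean of at least 1 CPM. Markers of other cells were present too. Dendritic cell and macrophage genes summed to 514 CPM for MHC-II high cells against 124 CPM, fibroblast genes to 186 and 1336 CPM, endothelial genes to 62.1 and 434 CPM, and erythroid genes to 70.4 and 2627 CPM with Hba-a1 and Hba-a2, listed with identical reads, counted once. In bulk RNA, fewer cells of a type and less RNA per cell cannot be told apart.

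Reads were found for all 9 genes in both libraries. Of the 9, Amtn, Odam, Ambn, Ibsp and Spp1 were called higher in MHC-II high cells and Dmp1 was called lower, while Enam, Dspp and Mepe had intervals that reached within 2-fold. Over all 23411 genes with no minimum, 12.1% were called higher and 16.3% lower. Odam and Mepe fell below a mean of 1 CPM over both libraries. Of the 17438 genes at or above that minimum, 14.5% were called higher and 10.9% lower. Amtn and Ambn passed it only through the high library, and Dspp and Dmp1 only through the low one. Enam, Ibsp and Spp1 had at least 1 CPM in each library. The median log2 ratio of the 9 genes was 1.60, and that of the 22017 genes with reads in both libraries was −0.11.

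**Figure D1:**
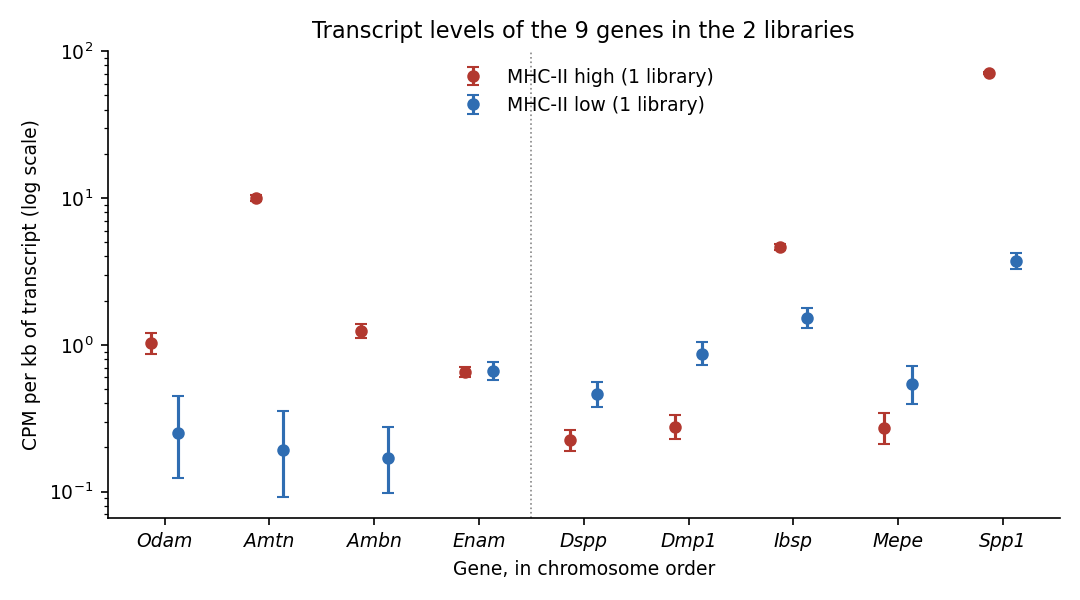
Levels of the 9 genes as CPM per kb of transcript on a log axis, with exact 95% Poisson intervals of the reads, in 1 MHC-II high (red) and 1 MHC-II low (blue) library. The dotted line parts the enamel genes from the dentin and bone genes. Spp1 was at the top in both libraries, at 71.1 and 3.73 CPM per kb, and Amtn moved from near the bottom of the low library (0.193) to the level below Spp1 in the high one (10.01).

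Per kb of transcript, the order in the high library was Spp1 (71.1 CPM per kb), Amtn (10.01), Ibsp (4.63), Ambn (1.24), Odam (1.02), Enam (0.654), Dmp1 (0.277), Mepe (0.272) and Dspp (0.225). The counting intervals of neighbours in that order were apart except between Ambn and Odam, between Dmp1 and Mepe, and between Mepe and Dspp. In the low library the order was Spp1 (3.73 CPM per kb), Ibsp (1.53), Dmp1 (0.871), Enam (0.664), Mepe (0.539), Dspp (0.462), Odam (0.249), Amtn (0.193) and Ambn (0.170). There the intervals were apart only between Spp1 and Ibsp and between Ibsp and Dmp1. The low library thus had the genes within a narrower range of levels. In the high library Spp1 lay above 96.3% of all genes by level per kb and Amtn above 69.6%. In the low library the same genes lay above 52.5% and 10.9%. Spp1 held 78.8% of the CPM summed over the 9 genes in the high library and 30.2% in the low one.

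The promoters are shown for Amtn and Spp1, which had the highest ratios, for Ibsp, and for Dmp1, the gene called lower that is adjacent to Ibsp. Each run is the 250 bases before the annotated RefSeq start, on the plus strand of GRCm38.p6, a later build than the mm9 named by the submitters. Capitals mark matches on either strand to TATAAA (the TATA box), TGTGGT (a core bound by Runx factors), TGANTCA (the AP-1 motif) and CANNTG (the E-box).
Amtn, chr5:88375858-88376107: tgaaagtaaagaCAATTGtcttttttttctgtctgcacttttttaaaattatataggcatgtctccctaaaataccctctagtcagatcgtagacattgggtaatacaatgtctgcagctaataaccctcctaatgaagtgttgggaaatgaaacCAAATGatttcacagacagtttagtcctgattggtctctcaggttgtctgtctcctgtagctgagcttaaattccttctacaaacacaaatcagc
Spp1, chr5:104434861-104435110: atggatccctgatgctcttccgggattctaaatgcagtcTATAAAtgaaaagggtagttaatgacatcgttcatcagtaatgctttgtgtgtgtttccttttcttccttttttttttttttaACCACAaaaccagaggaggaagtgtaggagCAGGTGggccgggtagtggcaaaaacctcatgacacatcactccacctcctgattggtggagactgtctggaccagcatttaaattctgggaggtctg
Ibsp, chr5:104299037-104299286: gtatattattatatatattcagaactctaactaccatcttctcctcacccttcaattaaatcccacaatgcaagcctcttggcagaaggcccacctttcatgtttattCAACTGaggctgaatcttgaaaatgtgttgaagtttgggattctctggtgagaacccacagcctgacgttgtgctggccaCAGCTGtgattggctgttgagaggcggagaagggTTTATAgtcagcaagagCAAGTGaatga
Dmp1, chr5:104197325-104197574: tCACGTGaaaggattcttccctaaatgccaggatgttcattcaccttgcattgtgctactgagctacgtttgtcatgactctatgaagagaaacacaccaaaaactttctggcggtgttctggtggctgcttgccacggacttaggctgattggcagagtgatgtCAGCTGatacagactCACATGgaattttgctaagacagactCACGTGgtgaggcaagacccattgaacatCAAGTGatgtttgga
The window of Amtn held 2 E-box matches and that of Dmp1 held 5. Ibsp had 3 E-box matches and TTTATA, the other strand of TATAAA, at 28 to 23 bases before the start. Spp1 had TATAAA at 211 to 206 bases and ACCACA, the other strand of TGTGGT, at 128 to 123 bases before its start.

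RefSeq promoters were matched for 8 of the 9 genes, all but Dspp. Over the 8, TATAAA was in 4 windows (Enam, Ibsp, Mepe and Spp1), against 12.4% of 32851 promoter windows of the same length. TGTGGT was in 3 (Odam, Mepe and Spp1), against 14% of all. TGANTCA was in Odam alone, against 6.75%, and CANNTG in 6, against 66.2%. No matches overlapped each other. The 8 windows held 0 to 5 CG dinucleotides, where the median of all promoters was 6, and Dmp1 had the 5. The GC share was 37.2% in Amtn, 37.6% in Enam, 43.6% in both Ibsp and Spp1 and 46% in Dmp1, against a median of 52.4%. Counted anywhere in the window, matches to the TATA box, the Runx core and the E-box each occurred both in genes called higher and in others. By position the TATA box matches differed. That of Ibsp, called higher, began 28 bases before the start. Those of Enam, Mepe and Spp1 began 137, 173 and 211 bases before it. Whether any match acts as a TATA box was not tested, and the shares of all promoters were not matched for GC share.

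The enamel genes are Amtn, Odam, Ambn and Enam. Amtn encodes amelotin, a protein of the maturing enamel surface and of the junctional epithelium that seals gum to tooth. It had 1563 reads (10.2 CPM) in MHC-II high cells against 10 reads (0.197 CPM). The ratio of 51.9 (interval 28.2 to 108) was the 7th highest of the 17438 genes past the minimum. Amtn passed that minimum only through the high library, and its rank rests on the 10 reads in the low one. Odam, whose product is found beside amelotin in the junctional epithelium and maturing enamel organ, had 136 reads (0.890 CPM) and 11 reads (0.217 CPM). Its ratio was 4.11, with limits of 2.22 and 8.42.

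Ambn encodes ameloblastin, an adhesion protein of the ameloblasts that lay down enamel. It had 352 reads (2.30 CPM) in MHC-II high cells against 16 reads (0.315 CPM), a ratio of 7.31 (4.44 to 12.9). Enam encodes enamelin, the large protein of the forming enamel front. It had 549 reads (3.59 CPM) and 185 reads (3.64 CPM), a ratio of 0.986 (0.833 to 1.17). Amtn, Ambn and Enam lie next to each other among the measured genes of chromosome 5, yet their ratio intervals do not overlap. Summed over the 4 enamel genes the ratio was 3.89 (3.39 to 4.48), and without Amtn it was 1.62 (1.40 to 1.89).

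**Figure D2:**
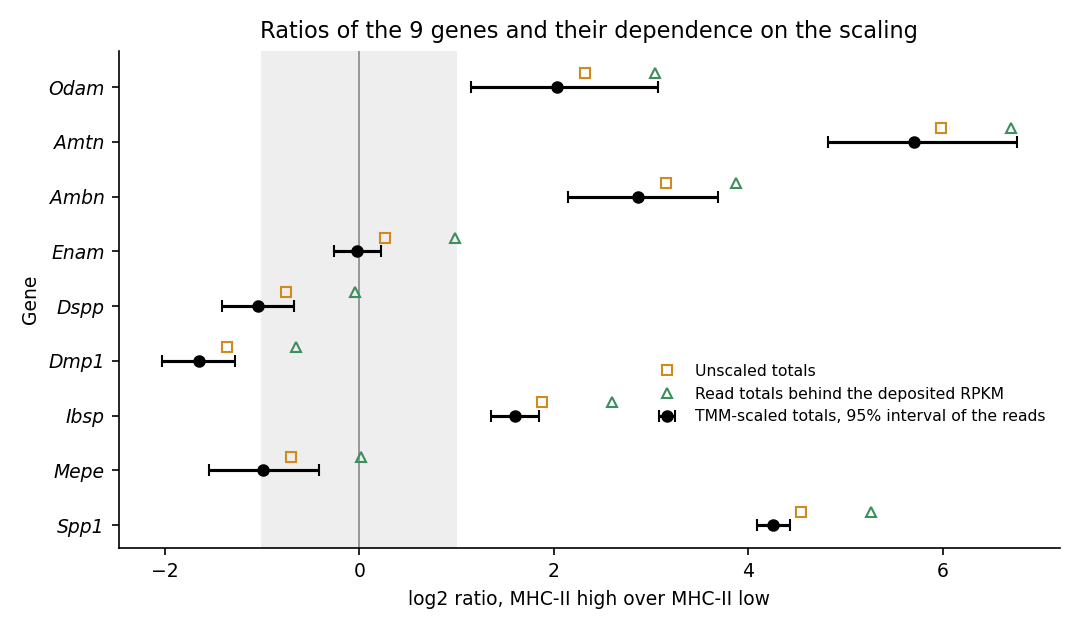
The log2 ratio of MHC-II high over MHC-II low for the 9 genes, with TMM-scaled totals and 95% intervals of the reads (black), and without intervals for unscaled totals (squares) and for the totals that the deposited RPKM imply (triangles). The grey band marks ratios within 2-fold. Amtn (5.70) and Spp1 (4.26) stand farthest to the right under TMM, and both other scalings move every gene to the right.

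The dentin and bone genes are Spp1, Ibsp, Dmp1, Dspp and Mepe. Spp1 encodes osteopontin, a phosphoprotein that binds integrins and CD44 and is made by bone cells, many epithelia and activated macrophages. It had 16033 reads (104.9 CPM) in MHC-II high cells against 279 reads (5.50 CPM). The ratio was 19.1 (interval 17.0 to 21.6), the 58th highest of the 17438. Of 5 listed Spp1 transcripts, which share reads, 4 had 16032 or 16033 reads in the high library and the other had 15556, and each had 279 in the low library. Their log2 ratios were 4.21 to 4.26. Ibsp encodes bone sialoprotein, which nucleates mineral and binds cells in young bone. It had 1384 reads (9.06 CPM) and 152 reads (2.99 CPM), a ratio of 3.02 (2.56 to 3.60).

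Both Spp1 and Ibsp are made by cells other than epithelium, and markers of such cells differed between the libraries. Of all genes past the minimum, 14.5% were called higher and 10.9% lower. Of 13 measured dendritic cell and macrophage genes, 12 passed the minimum and 7 were called higher in the high library, 0 lower. Their median log2 ratio was 1.497, their summed CPM was 4.15-fold higher, and 0 of 13 were at 0 reads in either library. Most of that sum came from Lyz2, the lysozyme gene of myeloid cells. It held 362 of 514 CPM in the high library and 74.0 of 124 CPM in the low one. The mannose receptor gene Mrc1 was at 57.3 against 9.28 CPM. Among the listed dendritic cell genes the values ran both ways. Flt3 had a ratio of 5.12 (3.99 to 6.67), Xcr1 3.43 (2.64 to 4.53) and Zbtb46, not called, 1.90 (1.735 to 2.08). Itgax had 0.597 (0.491 to 0.728), Clec9a 0.511 (0.380 to 0.692) and Siglech 0.794 (0.573 to 1.11), none of these 3 called. Of 8 osteoblast and osteocyte genes, 4 were called higher and 0 lower, with a median log2 ratio of 1.35 and summed levels of 81.9 and 80.7 CPM. The 4 include Bglap and Bglap2, near-identical copies whose reads cannot be assigned with certainty. None of the 8 was at 0 reads in either library. The part of these cells in the Spp1 and Ibsp ratios was not tested.

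Dmp1, Dspp and Mepe were the faintest of the 9 genes in the high library. Dmp1 encodes a dentin matrix protein that osteocytes make and that bears on mineral formation and phosphate balance. It had 117 reads (0.766 CPM) in MHC-II high cells against 122 reads (2.40 CPM), and so was 3.14-fold (2.42 to 4.08) more abundant in MHC-II low cells. Dspp encodes the precursor of dentin sialoprotein and phosphophoryn, the chief acidic proteins of dentin. It had 152 reads (0.995 CPM) and 104 reads (2.05 CPM), a log2 ratio of −1.04 with limits of the ratio at 0.376 and 0.629. Mepe, an osteocyte product that restrains mineralization, had 70 reads (0.458 CPM) and 46 reads (0.906 CPM). Its log2 ratio was −0.98, with limits of the ratio at 0.344 and 0.750.

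Dmp1 had a negative log2 ratio under every scaling tried, but its call depends on the scaling of the library totals. The call was lost with unscaled totals (log2 ratio −1.36) and with the totals that the deposited RPKM imply (−0.65). The latter totals raise the log2 ratio of every gene alike, and bring the median of all genes past the minimum from −0.01 to 0.997. With them Dspp was at −0.04 and Mepe at 0.02. Dmp1, Dspp and Mepe were below that median under both scalings, which a common shift leaves nearly unchanged and so is no separate check. In the deposited RPKM themselves, Dspp was listed at 0.160 for MHC-II high and 0.165 for MHC-II low cells, Mepe at 0.195 and 0.192, and Dmp1 at 0.198 and 0.311. Enam, near 0 under TMM, was at 0.468 and 0.237 RPKM. Amtn, Odam, Ambn, Ibsp and Spp1 had their whole interval beyond 2-fold under TMM totals. The same held under unscaled, upper-quartile and RPKM totals, all of which raise every ratio. Fibroblast genes were called lower in 6 of 7 cases (median log2 ratio −3.20), and endothelial genes in 6 of 6 (−3.71), against 10.9% of all genes past the minimum. Their part in the Dmp1, Dspp and Mepe values was not tested.

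Over the 5 dentin and bone genes the summed ratio was 8.39 (7.78 to 9.06). Without Spp1 it was 1.35 (1.21 to 1.505). Over all 9 genes it was 7.31 (6.84 to 7.82), and 2.22 (2.05 to 2.42) without Spp1.

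**Figure D3:**
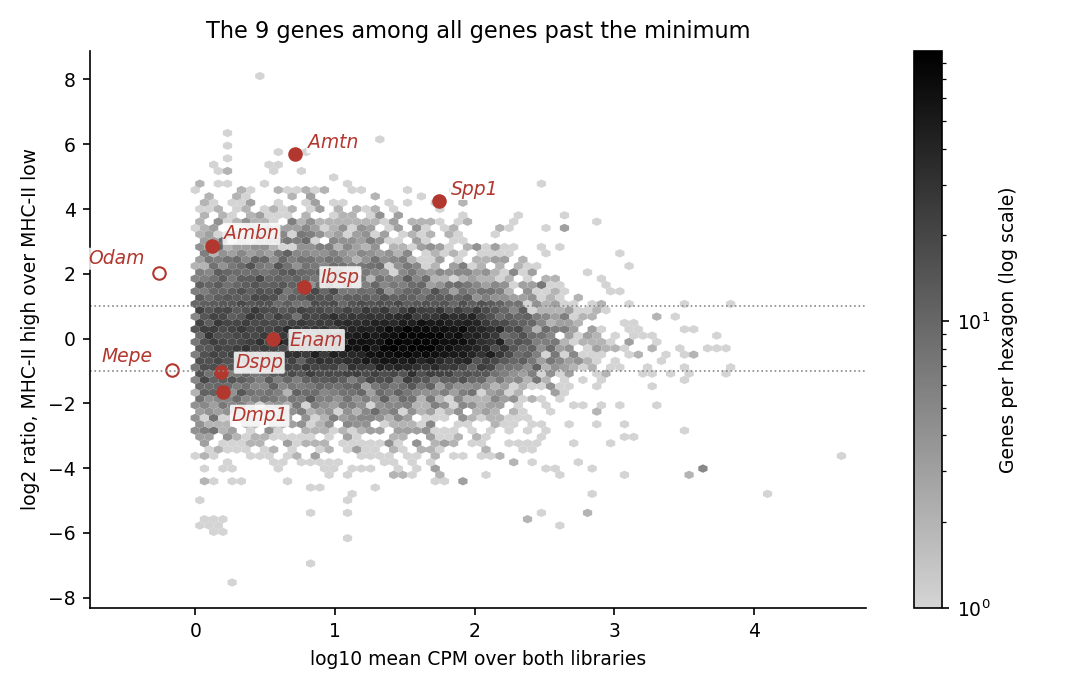
The 9 genes (red) over all genes past the minimum (grey hexagons), by log10 mean CPM and by log2 ratio of MHC-II high over MHC-II low. Open circles mark Odam and Mepe, which lie below the minimum, and dotted lines mark 2-fold. Amtn and Spp1 lie at the upper edge of the cloud, and Enam, Dspp and Dmp1 lie inside it.

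All 9 genes are on chromosome 5, in 3 groups of neighbours by the gene order of RefSeq on assembly GRCm38.p6, taken over measured genes. Odam lies among milk and saliva genes. Of the 3 measured genes on either side of it, the casein genes Csn1s2b (108 against 4 reads, ratio 8.97, limits 3.40 and 33.5) and Csn3 (872 against 42 reads, ratio 6.90, limits 5.06 and 9.64) were also called higher in the high library. Gm7337 was called lower, on 7 against 98 reads. Prr27 (38 against 21 reads) and Cabs1 (75 against 30) were not called, and 1700066N21Rik had 14 reads against 0. The salivary gene Prol1, just before Amtn, had a log2 ratio of −1.19. Beyond Enam, the immunoglobulin joining chain gene Jchain, known from plasma cells, had 796 against 24 reads, a ratio of 11.02 (7.35 to 17.3). Utp3 (log2 ratio 0.26) and Rufy3 (0.81) follow. Smr2 (10 against 3 reads) and Gm7714 (28 against 1) lie before Prol1.

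Dspp, Dmp1, Ibsp, Mepe and Spp1 follow each other with no other measured gene between them. Sparcl1, the SPARC-like gene before Dspp, was called lower, at 22.1 against 229 CPM, which is 10.4-fold (9.99 to 10.8) more in MHC-II low cells. Pkd2, the polycystin gene just after Spp1, had a log2 ratio of −0.50. Farther out, Nudt9 was at −0.73, Thoc2l at 0.47 and Zfp951 at −0.05. Gm17660, also named Scpppq1, encodes a junctional epithelium protein of the same family and had 13 against 2 reads. Calls in both directions thus occurred between adjacent genes. No other RefSeq gene overlaps any of the 9.

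**Figure D4:**
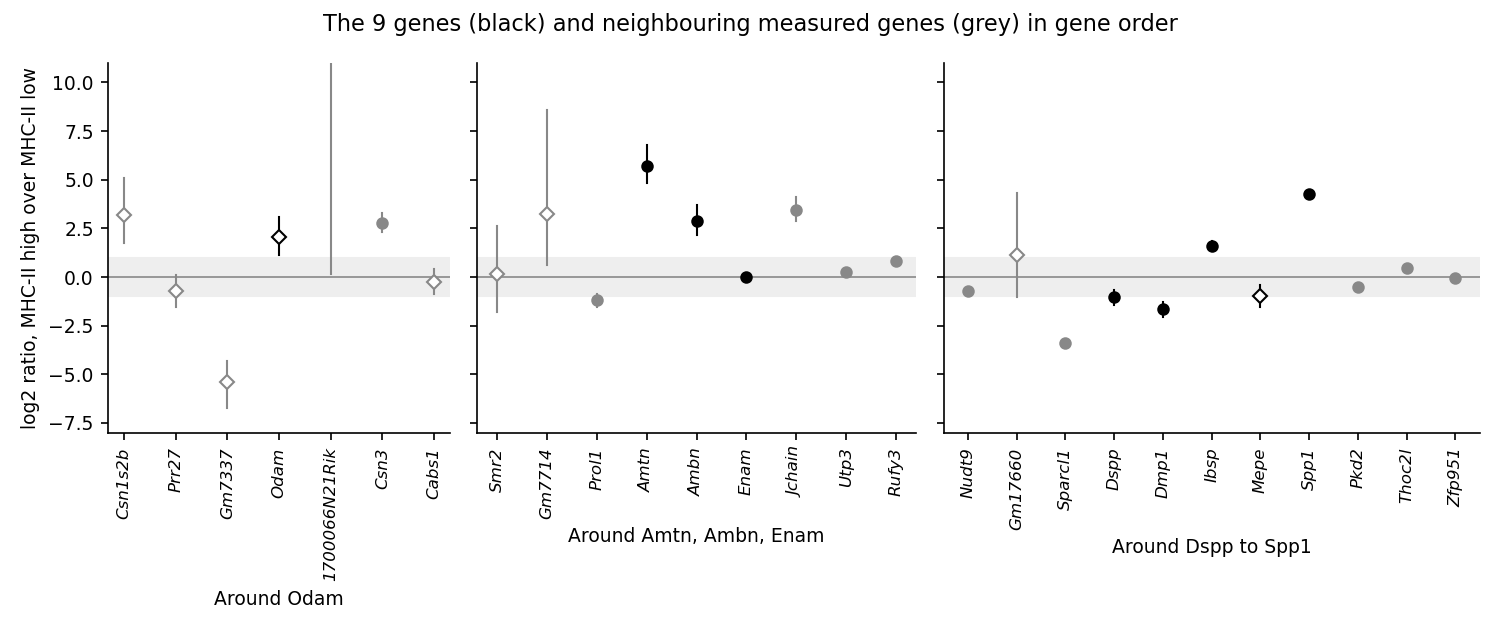
The log2 ratio of MHC-II high over MHC-II low for the 9 genes (black) and the 3 measured genes on either side (grey), in chromosome order, in 3 panels. Lines are 95% intervals of the reads, diamonds mark genes below the minimum, the grey band marks ratios within 2-fold, and 1700066N21Rik has no point because it had 0 reads in the low library. High values stand beside values near or below 0 in each panel, such as Spp1 (4.26) beside Mepe (−0.98).

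Relatives of the enamel branch are found in milk and saliva. Of 7 casein and salivary genes, 4 passed the minimum. Of these, 4 were called higher and 0 lower, against 14.5% and 10.9% of all genes past the minimum. Their median log2 ratio was 3.58, against −0.01 over all genes. Of these 4, Csn2 alone had 1 CPM or more in the low library. Csn2, the beta-casein gene, was at 792 against 59.9 CPM and Csn1s2a at 13.1 against 0.611 CPM (ratio 21.5, limits 15.1 and 31.7).

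Other genes of enamel formation were mixed. Of 12 listed, 10 passed the minimum. Of these, 4 were called higher and 1 lower, against 14.5% and 10.9% of all genes past the minimum. The median log2 ratio was 0.80. Amelx, for amelogenin, the main enamel protein and a family member on the X chromosome, had 1811 reads (11.9 CPM) in MHC-II high cells against 72 reads (1.42 CPM). Its ratio was 8.36 (6.60 to 10.7). The genes of the enamel proteases, which cleave enamel matrix proteins, were also called higher. Klk4 was at 29.9 against 1.34 CPM (ratio 22.3, limits 17.6 and 28.8), and Mmp20 at 6.54 against 0.689 CPM (ratio 9.48, limits 6.77 and 13.7). The 2 listed genes with the most reads were within 2-fold, Tuft1 with a ratio of 1.54 and Fam83h with a log2 ratio of −0.71.

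Among 16 other genes of bone and dentin matrix, 15 passed the minimum. Of these, 4 were called higher and 4 lower, against 14.5% and 10.9% of all genes past the minimum. The median log2 ratio was −0.62. With RPKM totals, which shift every gene alike, that median was 0.39, where all genes had 0.997. Bglap, for osteocalcin, was at 5.10 against 0.965 CPM (ratio 5.29, limits 3.96 and 7.21). Reads of near-identical Bglap copies cannot be assigned with certainty, and the copy Bglap2 was also among the 4 called higher. Sost, for sclerostin, an osteocyte inhibitor of Wnt signalling, was at 8.85 against 1.48 CPM (ratio 5.99, limits 4.74 and 7.66). The calcium-binding matrix genes that are widely made by connective tissue went the other way. Mgp was 39.1-fold (37.4 to 40.8) and Sparc 7.77-fold (7.59 to 7.95) more abundant in MHC-II low cells. Col1a1, the main collagen gene of bone, had a log2 ratio of −0.68 and Ank, a pyrophosphate exporter gene, one of 0.73. Fibroblast genes, whose summed CPM was 7.17-fold higher in the low library, moved with Mgp and Sparc, and their part was not tested.

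The proteins are phosphorylated in the secretory pathway and then cleaved. Of 14 genes for kinases and proteases that act on them, 2 were called higher (Klk4 and Mmp20) and 5 lower. The shares over all genes past the minimum were 14.5% and 10.9%. The median log2 ratio of the 14 was −0.43. With RPKM totals, which shift every gene alike, it was 0.71, where all genes had 0.997. Fam20c, the kinase of secreted phosphoproteins, was at 88.8 against 73.3 CPM, a ratio of 1.21 (1.17 to 1.26). The gelatinase genes Mmp2 and Mmp9 had log2 ratios of −3.47 and −1.51, and the transglutaminase gene Tgm2, whose product crosslinks osteopontin, one of −0.57.

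Osteopontin and bone sialoprotein bind integrins. Of 11 receptor genes, 2 were called higher and 2 lower, against 14.5% and 10.9% of all genes past the minimum. The median log2 ratio was −0.31. It was 0.69 with RPKM totals, which shift every gene alike, where all genes had 0.997. Itgb3, the beta chain of the vitronectin receptor, was at 36.1 against 9.49 CPM (ratio 3.80, limits 3.47 and 4.18). Itgb5 was called lower, at 11.1 against 37.1 CPM, which is 3.33-fold (3.12 to 3.56) more in MHC-II low cells. The most abundant of the 11 by reads, Itgb1 and Cd44, were at −0.51 and −0.65 on the log2 scale.

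Of 14 transcription factor genes known from tooth and bone, 11 passed the minimum. Of these, 5 were called higher and 1 lower, against 14.5% and 10.9% of all genes past the minimum. The median log2 ratio was 1.37. Over all 14 the median was 0.61, and it was 1.04 over those with at least 1 CPM in each library. Dlx3 and Dlx5, homeobox genes of tooth and bone development, were at 19.5 against 5.55 CPM and 11.7 against 3.84 CPM, with ratios of 3.52 (3.11 to 3.99) and 3.05 (2.63 to 3.55). Other homeobox genes of the list had ratios below 1, with Msx1 called lower at 0.387 (0.354 to 0.424) and Dlx6, below the minimum, not called at 0.332 (0.212 to 0.519). Vdr, the vitamin D receptor gene, had the second most reads and was at 169 against 57.5 CPM, a ratio of 2.94 (2.83 to 3.06). Atf4, with the most, was at 412 against 317 CPM.

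**Figure D5:**
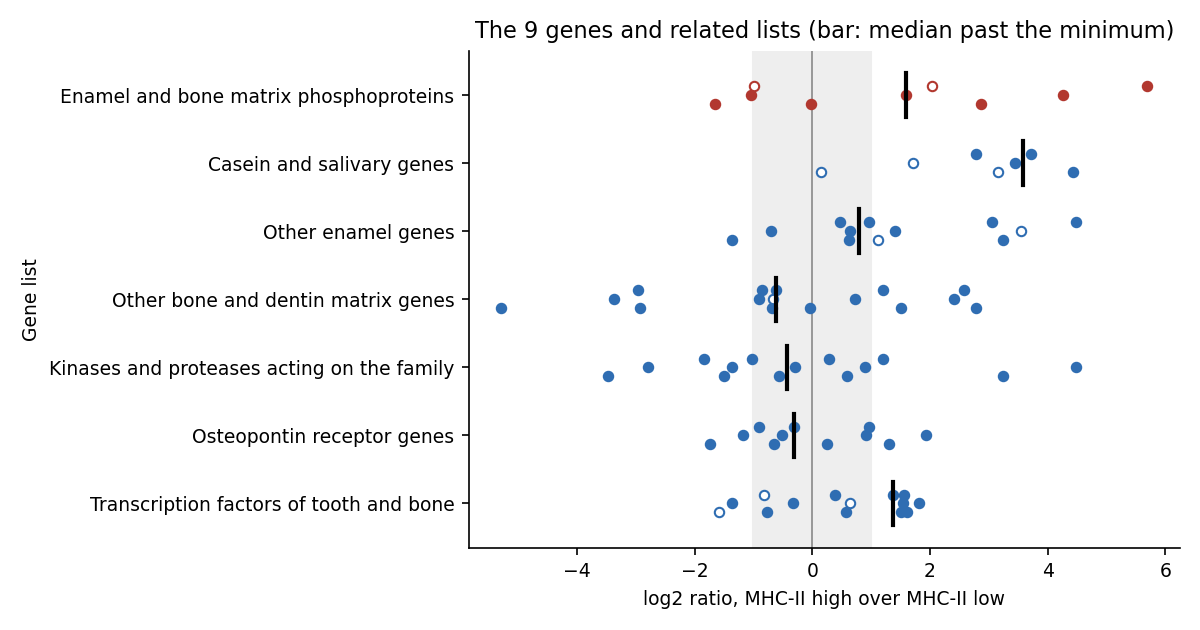
The log2 ratio of MHC-II high over MHC-II low for the 9 genes (red) and the genes of 6 related lists (blue). Each circle is 1 gene, open where it is below the minimum, bars are medians over genes past the minimum, and the grey band marks ratios within 2-fold. The 9 genes spread from Dmp1 (−1.65) to Amtn (5.70), while the 7 casein and salivary genes all lie above 0.

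Genes with the most similar pair of levels were sought by distance in log2 CPM per kb over the 2 libraries. With only 2 points per gene, this describes level and ratio alone. For Amtn they were Crisp1 (distance 0.38), Dcaf12l2 (0.46) and Cacng8 (0.80), and for Spp1 Nptx2 (0.38), Pcp4 (0.51) and Cldn13 (0.53). Closer matches were found for the other 7 genes. For Odam they were Psg26, Trhr and Acvr1c, for Ambn Astl, Mup16 and Uncx, and for Ibsp Masp2, Dync1i1 and Atp1b2, all within a distance of 0.10. For Enam, Dspp, Dmp1 and Mepe the nearest genes were Zfp174, Lrrc30, Kcnk7 and Adamts16, at distances of 0.02, 0.04, 0.02 and 0.01.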

How the data were processed

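Poly-A RNA was sequenced from MHC-II high and MHC-II low mTEC, 1 library each. Per the series' design text, about 100 ng of RNA entered a kit that does not keep strand, with 15 PCR cycles and reads of 2 ends of 100 bases. The submitters' processing notes name mm9, CASAVA, Bowtie 1.0.0 and bedtools. Per the file headers, the authors deposited read counts, length in bases and RPKM for each RefSeq transcript. The deposited RPKM used 1 read total per library, 213854095 (high) and 142330178 (low). Counts summed over all listed transcripts came to 89.5% and 52% of these totals. Reads shared by transcripts of a gene are counted more than once in those sums.

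Stray lines (18 and 36) were dropped, further copies of a transcript were summed, and 29800 of 29920 accessions were used. Symbols came from RefSeq (GRCm38.p6) and GENCODE vM21, and 394 accessions had none. Totals were scaled by TMM (edgeR 4.0.16, R 4.3.3) over genes with a mean unscaled CPM of at least 1. Intervals came from scipy 1.17.1. The comparison was run on simulated Poisson counts. These hold counting error alone, so the run cannot show how variation between mice or libraries affects the calls. The reads carry no molecular identifiers, so PCR copies cannot be told from separate fragments. Intervals cover counting error only, treat each read as independent and may be too narrow.

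The 9 genes and the lists were chosen with earlier results of these data known. Named list genes were the 2 with the most reads and the 2 with the largest ratio, plus Amelx, Sparcl1, Fam20c and Aire. The 3 measured genes on either side of each of the 9 and, where a gene had at least 10 reads in each library, the 3 with the nearest pair of levels were named too. Itgax, Clec9a, Siglech, Xcr1, Zbtb46, Msx1 and Dlx6 were named after their values were seen. Alternatives were other scalings, thresholds, minimums, transcripts and the reading of missing lines. Lists of immature mTEC (6 of 7 lower, median log2 ratio −2.35), all thymic epithelium (1 of 6 higher, 0.25), erythroid cells (3 of 4 lower, −5.47, with Hba-a1 and Hba-a2 counted once) and thymocytes (1 of 7 higher and 1 lower, −0.89) were also compared. Protein features had been planned and were not analysed here.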

Additional observations from a re-analysis of the deposited data

How the results depend on the processing

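Relative to TMM, unscaled totals move all log2 ratios by 0.29, totals from TMM over all genes (an alternative chosen after seeing the data) by 0.12, upper-quartile totals by 0.04 and the read totals behind the deposited RPKM by 1.0025. The 5 genes called higher kept their direction under all 10 alternatives. The other scalings all raise the ratios, and thresholds and minimums leave them as they are. These settings could therefore not have reversed a ratio above 1. Log2 ratios were 5.70 to 6.70 for Amtn, 4.21 to 5.26 for Spp1, 2.87 to 3.87 for Ambn, 2.04 to 3.04 for Odam and 1.60 to 2.60 for Ibsp. Beyond 4-fold, Odam and Ibsp lost the call. Dmp1 was negative throughout, from −1.65 to −0.65, and was not called with unscaled totals, RPKM totals or a 4-fold threshold. Enam turned positive with upper-quartile totals (0.016), TMM over all genes (0.10), unscaled totals (0.27) and RPKM totals (0.98), and Mepe with RPKM totals (0.018). Of the 9 genes, 7 passed the minimum, 4 with RPKM totals and 3 when at least 1 CPM was asked in each library. Of those that passed, 4 were called higher, 3 with RPKM totals or beyond 4-fold and 2 with 1 CPM in each library. In place of 1 of the 9 called lower there were 0 with unscaled totals, RPKM totals, a 4-fold threshold or 1 CPM in each library, and 2 beyond 1.5-fold. Over the 17438 genes that met the minimum, calls were 14.51% higher and 10.94% lower. This became 45.15% and 2.94% with RPKM totals, 22.78% and 20.43% beyond 1.5-fold and 4.89% and 3.27% beyond 4-fold. The share of calls that were higher was 57.0%, 72.9% with unscaled totals, 93.9% with RPKM totals and 42.6% with no minimum. The median log2 ratio of all genes turned from −0.01 to 0.28 (unscaled), 0.997 (RPKM), 0.024 (upper-quartile) and 0.11 (TMM over all genes). Of 6 related lists, 3 had a median above 0. With RPKM totals, whose shift alone moves every list, 6 did, and the medians turned to 0.39 for bone and dentin matrix, 0.71 for kinases and proteases and 0.69 for receptors, and that of thymocyte genes to 0.11, all below the 0.997 of all genes. No paired analysis was possible because each group has 1 library, and none could be left out.

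Depth limits the low library most. Its 3-read limit is 0.0591 CPM, and Amtn, Odam and Ambn rest on 10, 11 and 16 reads there, so the upper limits of their ratios are wide. Which scaling is right was not tested.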
